A study of Mus musculus with 12 samples.

Results

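Glucose uptake and upper glycolysis were followed through 10 genes in bone marrow-derived macrophages (BMDMs) and 3T3 fibroblasts, namely Slc2a1, Hk1, Hk2, Hk3, Gpi1, Pfkl, Pfkp, Aldoa, Pfkfb3 and Pfkfb4. They were found by their symbols, and all 10 were among the 32544 genes of the count table. All 10 also passed the filter on low counts, which kept 14285 genes. RNA was sequenced in 12 libraries, 3 in each of 4 groups. BMDMs came from mice with LysMCre, called WT, or from PHD2cko mice, in which LysMCre drives a conditional deletion of Egln1, the gene of the oxygen sensor PHD2, on the same genetic background. LysMCre acts in macrophages and neutrophils. BMDMs were grown with 15% L929-conditioned medium in RPMI with 2 g/L glucose, and RNA was taken 24 h after seeding. The fibroblasts were a single established mouse line (NIH/3T3) and were serum-starved first. They were then kept for 72 h in medium that WT or PHD2cko BMDMs had conditioned for 24 h. This medium was DMEM and not RPMI, with 2% FCS and 15% L929-conditioned medium, and its glucose was not given in the sources used here. The age and sex of the mice and the oxygen level of the sequenced cultures were not given in the sources used here, and nothing said that the 3 libraries of a group came from separate animals. The p-values therefore measure the spread between these libraries, which may be technical.

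Glucose enters most cells through facilitative transporters of the SLC2A family, and hexokinases trap it as glucose 6-phosphate. Glucose phosphate isomerase, phosphofructokinase and aldolase then turn this into triose phosphates, with phosphofructokinase as the committed step. The bifunctional PFKFB enzymes make and degrade the allosteric activator of phosphofructokinase. PHD2 hydroxylates the alpha subunits of hypoxia-inducible factors (HIF) when oxygen is present, which marks them for degradation, and many genes of glycolysis are textbook HIF targets. Most steps are carried out by isozymes encoded by separate genes, whose use differs between cell types.

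Library totals ran from 15516465 to 25199770 estimated counts. Values of genes are given as CPM, counts per 1e+06 counts of a library, after normalization by the trimmed mean of M-values (TMM). Cell identity was checked with 22 macrophage and 16 fibroblast markers, whose summed CPM are per library total, before TMM. The macrophage markers summed to between 35080 and 40590 CPM in BMDMs, and the fibroblast markers to between 25440 and 33940 CPM in 3T3 fibroblasts and at most 27.1 CPM in BMDMs. In fibroblasts the macrophage markers summed to 21.5 to 23.2 CPM in WT medium and to 192 to 867 CPM in PHD2cko medium, and 21 of the 22 were higher in PHD2cko medium. Egln1 itself had 860, 904 and 913 counts in WT BMDMs and 1134, 1000 and 1364 counts in those labelled PHD2cko, a log2 fold change of 0.33 (adjusted p = 0.00203). Egln1 mRNA was thus not lower in the libraries labelled PHD2cko, and since the table holds no values by exon, loss of a part of the transcript could not be checked. BMDMs and media are called PHD2cko by their label. Among the fibroblast libraries, WT medium replicate 1 stood apart from the other two of its group (chi-square per degree of freedom 24.6 and 26.2, against 2.34 between those).

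**Figure D1:**
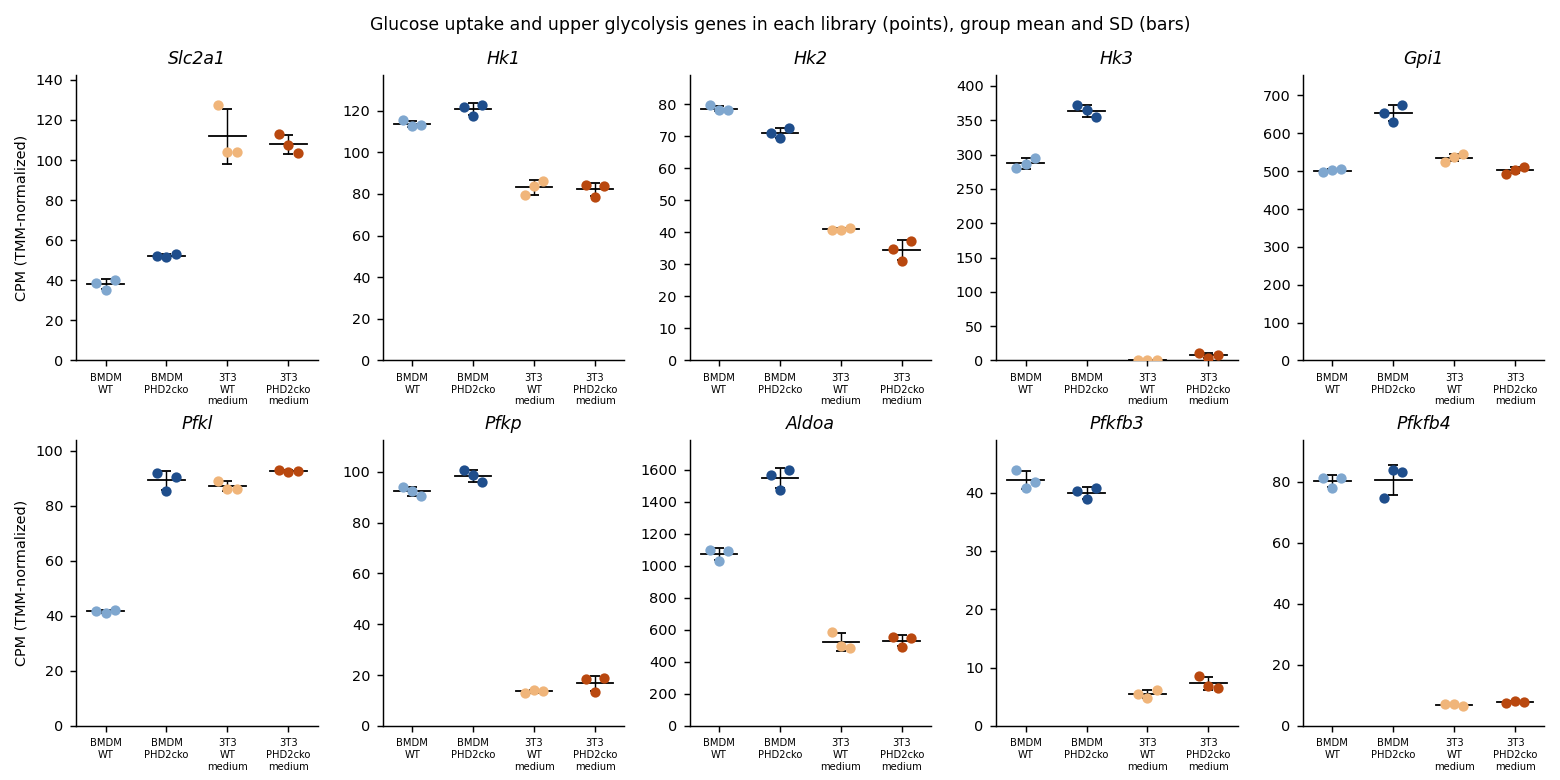
CPM of the 10 genes, each panel with its own linear axis from 0, with 1 point per library and the mean and SD of the 3 libraries of a group as bars. Pfkl is at 40.9 to 42.1 CPM in WT BMDMs and at 85.2 to 92.8 CPM in all other libraries, while Hk3, Pfkp, Pfkfb3 and Pfkfb4 are high in BMDMs and low in fibroblasts.

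The first question was whether the genes of glucose uptake and upper glycolysis differed between BMDMs labelled PHD2cko and WT. Slc2a1, Gpi1, Pfkl and Aldoa were higher in PHD2cko BMDMs and no member was lower, so that 4 of 10 passed the test (edgeR's quasi-likelihood test, two-sided, Benjamini-Hochberg adjusted p under 0.05 over all genes tested). Of all genes tested, 3.38% were higher and 3.35% lower. The median log2 fold change was 0.22 over the 10 genes and 0.00 over all genes tested. The WT and PHD2cko libraries did not overlap for 9 of the 10 genes, Pfkfb4 being the exception, against 31.9% of all genes tested.

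Pfkl, the liver-type phosphofructokinase (ENSMUSG00000020277.10, chr10:77986947-78010083, minus strand, GRCm38), had the largest change of the 10. Its level was 41.7, 40.9 and 42.1 CPM in the 3 WT BMDM libraries and 91.9, 85.2 and 90.5 CPM in the 3 PHD2cko libraries. Every PHD2cko library was thus above every WT library, with a gap much wider than the spread within either group. The difference was 2.15-fold, or 1.10 on the log2 scale (adjusted p = 1.4e-08, SE 0.0427). The muscle-type Pfkm (0.07) and the platelet-type Pfkp (0.09, adjusted p = 0.639) had small log2 fold changes that did not pass the test. Pfkp was at 90.7 to 94.1 CPM in WT and 96.0 to 100.6 CPM in PHD2cko BMDMs.

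Slc2a1 encodes GLUT1, the transporter for basal glucose uptake in many cells (ENSMUSG00000028645.11, chr4:119108711-119137983, plus strand). It was at 38.7, 35.2 and 40.3 CPM in WT and at 52.3, 51.4 and 53.0 CPM in PHD2cko BMDMs. The PHD2cko libraries lay close together and above all WT libraries, with a log2 fold change of 0.46 (adjusted p = 0.00503, SE 0.0832). Of the other transporters and isozymes of the same families, 10 of 17 were tested, and 0 were higher and 1 lower, against 3.38% and 3.35% of all genes tested. That gene was Slc2a6, which encodes the lysosomal transporter GLUT6, at 86.8 to 92.3 CPM in WT and 49.3 to 52.3 CPM in PHD2cko BMDMs (log2 fold change -0.81, adjusted p = 0.000212). Slc2a3, the gene of the high-affinity neuronal transporter GLUT3, was at 17.8 to 19.5 and 14.1 to 15.0 CPM, at a log2 fold change of -0.35 with a 95% interval of -0.58 to -0.12, and did not pass after adjustment.

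Aldoa, which splits the 6-carbon sugar bisphosphate into trioses, was at 1097, 1031 and 1090 CPM in WT and at 1568, 1477 and 1596 CPM in PHD2cko BMDMs. All PHD2cko libraries were above all WT libraries (log2 fold change 0.53, adjusted p = 0.00107, SE 0.0772). GENCODE gives the symbol to 2 neighbouring genes on the minus strand of chromosome 7, ENSMUSG00000030695.16 at chr7:126795234-126800751 and ENSMUSG00000114515.2 at chr7:126800790-126809108, and the single deposited value does not say which was counted. Gpi1, glucose phosphate isomerase (ENSMUSG00000036427.5, chr7:34201330-34230336, minus strand), rose from 498, 502 and 504 CPM to 655, 631 and 674 CPM. This was the smallest of the 4 called changes (log2 fold change 0.38), with an adjusted p of 0.000263 and an SE of 0.0467. With each of the 6 BMDM libraries left out in turn, these 4 genes and no others were called in every fit.

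The hexokinases did not pass in BMDMs. Hk2, the inducible hexokinase that can bind mitochondria (ENSMUSG00000000628.10, chr6:82725025-82774454, minus strand), was at 79.7, 78.0 and 78.1 CPM in WT and 70.9, 69.5 and 72.4 CPM in PHD2cko BMDMs. Its PHD2cko libraries were all below the WT libraries, at a log2 fold change of -0.15 (adjusted p = 0.150). Hk3, the hexokinase of blood cells (ENSMUSG00000025877.14, chr13:55005985-55021385, minus strand), was at 280.1, 286.2 and 295.7 CPM in WT and 372, 364.9 and 354.6 CPM in PHD2cko BMDMs. All 3 PHD2cko libraries were higher, and the log2 fold change was 0.34 with a 95% interval of -0.03 to 0.71 (adjusted p = 0.311). The fit takes 1 spread per gene from all 12 libraries. Among these were the fibroblast libraries in PHD2cko medium, which held 55 to 202 Hk3 counts. The interval is thus not one of the BMDM libraries alone. When the 6 BMDM libraries were fitted alone, Hk3 passed as higher (adjusted p = 1.28e-06) and Hk2 as lower (adjusted p = 0.0095). Hk1, the widely expressed hexokinase (ENSMUSG00000037012.18, chr10:62268855-62379908, minus strand), was at 113 to 115 and 117 to 123 CPM, with a log2 fold change of 0.08.

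None of the bifunctional enzyme genes passed the test in BMDMs. Pfkfb3, whose product strongly favours synthesis of the activator (ENSMUSG00000026773.19, chr2:11471433-11554077, minus strand), was at 40.9 to 43.8 CPM in WT and 38.9 to 40.7 CPM in PHD2cko BMDMs. The 95% interval of its log2 fold change, -0.25 to 0.09, left out a change as large as that of Slc2a1. Pfkfb4 (ENSMUSG00000025648.18, chr9:108991778-109032228, plus strand) was at 77.9 to 81.3 and 74.8 to 83.7 CPM, with a log2 fold change of 0.01 and a 95% interval of -0.10 to 0.12. Pfkfb1, the liver-type gene, was far lower, at 1.57 to 1.62 CPM in WT and 1.82 to 2.66 CPM in PHD2cko BMDMs. Its libraries did not overlap, and its log2 fold change was 0.42 with a wide 95% interval of -0.02 to 0.85 (adjusted p = 0.285).

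Genes that border or oppose these steps were read from a list of 17, of which 13 were tested. In PHD2cko BMDMs 3 of them were higher and 0 lower, where 3.38% of all genes tested were higher and 3.35% lower. Tpi1, triose phosphate isomerase, the step after aldolase, was at 185 to 191 CPM in WT and 362 to 383 CPM in PHD2cko BMDMs (log2 fold change 0.99, adjusted p = 3.89e-06). Pgm2, of the phosphoglucomutase family, and Gys1, glycogen synthase, had log2 fold changes of 0.42 and 0.26, while Pgm1 was not called (0.25, adjusted p = 0.0661). Of 9 tested regulators, 4 were higher and 1 lower, and among the 4 were Egln1 and Egln3, which encodes PHD3 and is a textbook HIF target (4.14, 4.22 and 4.601 against 16.2 to 17.5 CPM, log2 fold change 1.96). Myc, a transcription factor that acts on genes of glycolysis, was at 1.10 to 1.94 and 2.47 to 3.10 CPM (log2 fold change 1.00). Txnip, which encodes an inhibitor of glucose uptake, had a log2 fold change of 0.28, and Hif1a mRNA was lower at -0.22.

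**Figure D2:**
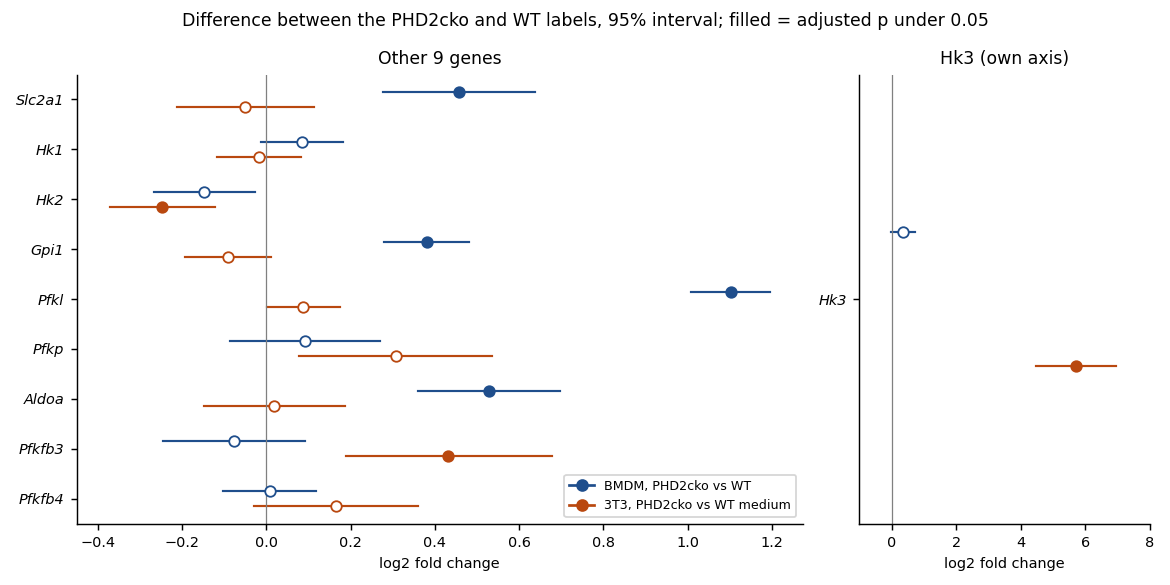
Log2 fold change between the PHD2cko and WT labels with its 95% interval, in BMDMs (blue) and 3T3 fibroblasts (orange), with filled circles for genes past the test and Hk3 on an axis of its own. In BMDMs the filled circles are Pfkl at 1.10, Aldoa at 0.53, Slc2a1 at 0.46 and Gpi1 at 0.38, and in fibroblasts they are Hk3 at 5.71, Pfkfb3 at 0.43 and Hk2 at -0.25.

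The promoters of the 4 higher genes are shown beside those of Hk2 and Pfkfb3, which are also commonly listed as HIF targets but were not called higher. Each line gives bases before a RefSeq start site on GRCm38.p6, at most 150 of them and without any exon that GENCODE annotates, 5′ to 3′ on the strand of the gene. Capitals mark the HIF core motif, searched as ACGTG or GCGTG on both strands (CACGT and CACGC when read on the gene's strand), where matches may overlap.
Slc2a1, chr4:119108561-119108710, plus strand: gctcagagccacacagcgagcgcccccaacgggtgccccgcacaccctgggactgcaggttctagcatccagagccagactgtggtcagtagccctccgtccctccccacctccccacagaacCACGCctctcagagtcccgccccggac
Pfkl, chr10:78009808-78009957, minus strand: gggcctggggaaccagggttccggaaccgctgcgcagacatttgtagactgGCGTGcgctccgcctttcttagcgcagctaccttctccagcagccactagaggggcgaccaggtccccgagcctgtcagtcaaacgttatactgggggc
Aldoa, chr7:126799255-126799404, minus strand: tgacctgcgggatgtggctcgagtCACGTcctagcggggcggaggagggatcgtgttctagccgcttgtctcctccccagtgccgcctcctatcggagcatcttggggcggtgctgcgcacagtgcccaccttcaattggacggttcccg
Gpi1, chr7:34230337-34230419, minus strand: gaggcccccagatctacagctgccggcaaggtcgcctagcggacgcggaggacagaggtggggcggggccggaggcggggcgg
Hk2, chr6:82774455-82774604, minus strand: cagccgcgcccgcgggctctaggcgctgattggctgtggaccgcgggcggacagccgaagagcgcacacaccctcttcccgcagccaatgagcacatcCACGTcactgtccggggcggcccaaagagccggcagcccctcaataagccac
Pfkfb3, chr2:11502102-11502251, minus strand: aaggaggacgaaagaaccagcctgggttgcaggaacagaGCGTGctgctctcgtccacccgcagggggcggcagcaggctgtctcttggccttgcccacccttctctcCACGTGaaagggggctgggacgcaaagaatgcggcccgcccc
The Pfkl motif began 99 bases before its start site, that of Aldoa 126 bases, and those shown for Slc2a1 and Hk2 61 and 52 bases. Outside the printed windows, Slc2a1 also had a match 36 bases before its start site and Hk2 a match 226 bases before. Pfkfb3 had 3 matches, of which a pair overlapped. The start sites shown for Pfkl, Slc2a1, Aldoa and Pfkfb3 lie inside the GENCODE gene, downstream of its 5′ end, and so do the windows of Pfkl, Aldoa and Pfkfb3. The Gpi1 window held none, which says only that these letters are not in that stretch. Of the 14 promoters RefSeq lists for the 10 genes, 11 held the motif within 250 bases before the start (78.6%), against 38.6% of 32851 promoters of all genes. By gene, 9 of 10 held it in at least 1 promoter, against 41.5% of 27025 genes. Promoters with the motif were thus found both among genes that were higher (Pfkl, Slc2a1, Aldoa) and among genes that were not (Hk1, Hk2, Hk3, Pfkp, Pfkfb3, Pfkfb4). A match is a description of the sequence and not a binding site.

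The second question was whether the medium of PHD2cko macrophages altered the same genes in fibroblasts. Hk3 and Pfkfb3 were higher and Hk2 was lower in PHD2cko medium, so that 3 of the 10 genes passed. Of all genes tested, 8.93% were higher and 6.75% lower. For 6 of the 10 genes no library in PHD2cko medium overlapped those in WT medium, against 31.9% of all genes tested, and the median log2 fold change was 0.05 over the 10 genes.

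Hk2 was at 40.7, 40.6 and 41.4 CPM in WT medium and at 34.7, 31.1 and 37.3 CPM in PHD2cko medium. All 3 libraries in PHD2cko medium were lower, with -0.25 on the log2 scale (adjusted p = 0.0128, SE 0.0579). Leaving out any 1 of the 6 fibroblast libraries kept the call of Hk2, which was also made with the macrophage share subtracted (adjusted p = 0.0125), but not when the 6 fibroblast libraries were fitted alone (adjusted p = 0.105). Pfkfb3 was at 5.44, 4.82 and 6.08 CPM in WT medium and 8.53, 6.83 and 6.49 CPM in PHD2cko medium. The lowest library in PHD2cko medium lay just above the highest in WT medium, and the log2 fold change was 0.43 (adjusted p = 0.0216, SE 0.113). Pfkfb3 was not called in the 6 fibroblast libraries alone (adjusted p = 0.141), nor without WT medium replicate 2 (log2 fold change 0.34) or PHD2cko medium replicate 1 (0.30).

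Hk3 had 1, 3 and 5 counts in fibroblasts in WT medium, and 202, 55 and 176 counts in PHD2cko medium, against 4314 to 6755 counts in BMDMs. The 3 libraries in PHD2cko medium were at 10.4, 3.18 and 8.52 CPM, with replicate 2 the lowest. The ratio of summed counts per library total, PHD2cko over WT medium, was 56.9 with an exact 95% interval of 29.7 to 125 that covers counting error only. The fitted log2 fold change of Hk3 was 5.71 (adjusted p = 7.89e-05, SE 0.570). The macrophage markers moved with it. Their summed level in fibroblasts was 0.0536%, 0.0560% and 0.0578% of that in BMDMs in WT medium and 2.45%, 0.541% and 2.20% in PHD2cko medium. Hk3 was at 0.0212%, 0.0459% and 0.111% and at 3.52%, 1.07% and 2.87% of its BMDM level in the same libraries. Percentages of a BMDM level use counts per library total, before TMM, for every gene and for the marker sum. In PHD2cko medium replicate 2 was the lowest for both Hk3 and the marker sum, while the 1 to 5 counts in WT medium are too few to order those libraries. Beyond a subtraction, the part of the markers in the result was not tested. After subtraction of each library's macrophage share, Hk3 kept 0, 0 and 2 counts in WT medium and 62, 27 and 41 in PHD2cko medium and was still called (adjusted p = 4.93e-05), while Pfkfb3 was not (log2 fold change 0.36, adjusted p = 0.0606). The sum in BMDMs, to which Lyz2 and Ctss add most, sets this share. The subtraction thus cannot tell whether Hk3 rose beyond the markers as a set. In PHD2cko BMDMs over fibroblasts in PHD2cko medium, the log2 fold change was 5.60 for Hk3. For the 22 markers its median was 5.535, from 3.49 for Cd14 to 7.27 for Ctss.

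Some other genes with higher levels in BMDMs than in fibroblasts were also higher in PHD2cko medium, and others were not. Aldoc, the brain-type aldolase, had 4, 4 and 3 counts in WT medium and 95, 20 and 95 in PHD2cko medium (log2 fold change 4.40, adjusted p = 0.000393). Pygl, liver-type glycogen phosphorylase, had 1, 3 and 0 counts against 70, 18 and 94. Slc2a6 was at 1.09 to 1.27 CPM in WT medium and 2.14 to 4.57 CPM in PHD2cko medium (log2 fold change 1.62). In each of these genes replicate 2 was the lowest library in PHD2cko medium, as it was for Hk3 and the marker sum. Slc2a3 and Pfkfb4, also higher in BMDMs but at larger percentages of the BMDM level in fibroblasts, were not called. Per library total, Slc2a3 was at 15.1%, 11.4% and 8.65% of its BMDM level in WT medium and 16.2%, 17.6% and 18.0% in PHD2cko medium, and Pfkfb4 at 10.8%, 10.6% and 9.88% and at 11.6%, 12.4% and 11.7%, so that replicate 2 was the lowest for neither. Slc2a9 and Pfkp were not called either, but replicate 2 was their lowest library in PHD2cko medium. They were there at 13.2%, 9.42% and 12.5% and at 22.9%, 16.3% and 23.3% of their BMDM levels. Whether these transcripts belonged to fibroblasts or to macrophage material in the wells cannot be told apart in bulk RNA, where fewer cells of a type and less RNA per cell cannot be told apart either.

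**Figure D3:**
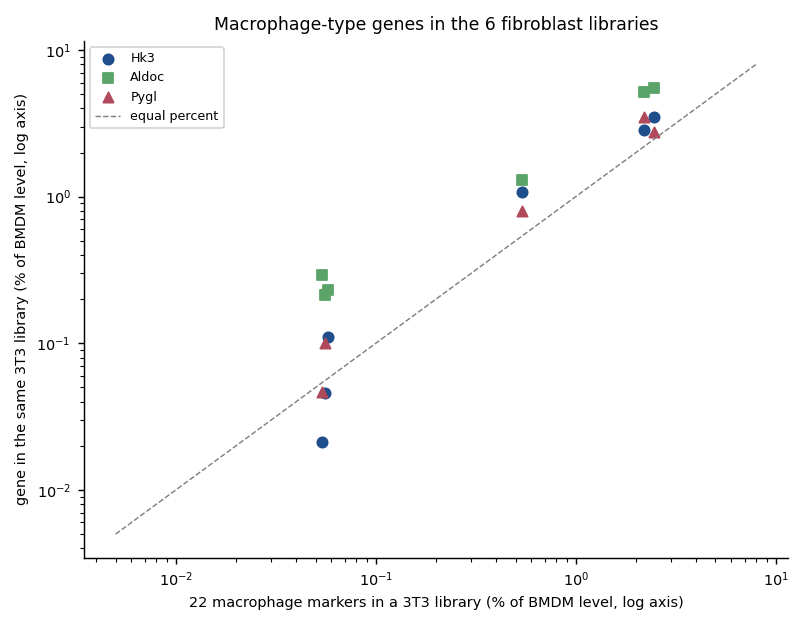
Level of Hk3, Aldoc and Pygl in each of the 6 fibroblast libraries, as a percentage of their level in BMDMs of the matching label, against the same percentage for the summed 22 macrophage markers, on log axes. Levels are counts per library total, before TMM. The libraries in WT medium sit at 0.0536% to 0.0578% on the horizontal axis and those in PHD2cko medium at 0.541% to 2.45%, the dashed line marks equal percentages, and 1 library with 0 Pygl counts cannot be drawn.

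The 4 genes that were higher in PHD2cko BMDMs were not called in fibroblasts. Pfkl was at 89.1, 86.0 and 86.2 CPM in WT medium and 92.8, 92.3 and 92.7 CPM in PHD2cko medium, higher in all 3 libraries by a log2 fold change of only 0.09 (adjusted p = 0.164). It was called without WT medium replicate 1 (0.13, adjusted p = 0.0222). Slc2a1 was at 127, 104 and 104 CPM and 113, 107 and 103 CPM, with the highest value in the WT medium library that stood apart. Its log2 fold change was -0.05 (95% interval -0.21 to 0.11), and 0.07 without that library. Aldoa had a log2 fold change of 0.02 (-0.15 to 0.19) and Gpi1 of -0.09 (-0.19 to 0.01). Hk1 (-0.02) and Pfkfb4 (0.17) were not called either. Pfkp was at 12.8, 14.3 and 13.6 CPM in WT medium and 18.3, 13.1 and 18.7 CPM in PHD2cko medium, a log2 fold change of 0.31 that did not pass (adjusted p = 0.0688) but was called by DESeq2 (adjusted p = 0.0253) and without PHD2cko medium replicate 2 (0.45, adjusted p = 0.000333), the library of that group with the lowest macrophage marker sum. With the macrophage share subtracted, the log2 fold change of Pfkp was 0.22 (adjusted p = 0.15).

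Of the listed genes outside the 10, other isozymes counted 2 higher and 1 lower of 10 tested, neighbouring and opposing steps 1 higher and 2 lower of 13, and regulators 2 higher and 0 lower of 9, against 8.93% higher and 6.75% lower of all genes tested. The lower genes were Slc2a8 (log2 fold change -0.26), Adpgk (-0.26), which encodes an ADP-dependent sugar kinase, and Pygb (-0.17), brain-type glycogen phosphorylase, and Hif1a was higher (0.14). Txnip had the clearest change among them. It was at 50.5, 54.1 and 59.2 CPM in WT medium and 192, 226 and 219 CPM in PHD2cko medium, with all 3 libraries higher (log2 fold change 1.96, adjusted p = 2.44e-08). Unlike for Hk3 and Aldoc, replicate 2 was the highest and not the lowest library in PHD2cko medium.

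The difference between the label effects of fibroblasts and BMDMs was tested as an interaction, and 6 of the 10 genes passed, against 12.3% of all genes tested in either direction. The effect in fibroblasts was smaller for Pfkl (difference of log2 fold changes -1.01, adjusted p = 1.12e-06), Aldoa (-0.51, adjusted p = 0.00852), Slc2a1 (-0.51, adjusted p = 0.0101) and Gpi1 (-0.47, adjusted p = 0.000593). It was larger for Hk3 (5.37, adjusted p = 0.000265) and Pfkfb3 (0.51, adjusted p = 0.0288). Of the macrophage markers, 21 of 22 were higher in the same fibroblast libraries as Hk3. With the macrophage share subtracted, Hk3 was still called (5.63, adjusted p = 0.000117), with the limit of the summed share given above. Pfkfb3 was not (0.43, adjusted p = 0.0704). For Pfkfb3 the call was kept in 5 of 12 fits that left out a library, and for the other 5 genes in all 12. Neither Hk1, Hk2, Pfkp nor Pfkfb4 passed, and the 95% interval for Hk2 was -0.27 to 0.07.

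The third question was how isozyme use differed between macrophages and fibroblasts. Cell type, medium and time in culture changed together in this comparison and cannot be told apart. In WT BMDMs against fibroblasts in WT medium, 7 of the 10 genes were higher, 2 were lower and Gpi1 did not pass. With 85.3% of all genes tested called in either direction, 9 of 10 is close to the share among all genes. At 2-fold or more, 5 genes were higher and 2 lower, against 23.0% and 27.5% of all genes tested. The median log2 fold change was 0.99 over the 10 genes and -0.08 over all genes tested.

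Hk3 had the largest difference, but it was kept by the filter on low counts through groups other than fibroblasts in WT medium, and so had to differ. The ratio of its counts per library total in WT BMDMs over fibroblasts in WT medium was 1750 (95% interval of counting 922 to 3830). Pfkfb4 was next, at 77.9 to 81.3 CPM in WT BMDMs against 6.55 to 7.22 CPM in fibroblasts (11.5-fold, log2 fold change 3.53, adjusted p = 1.85e-14, SE 0.0644). Pfkfb3 was 7.81-fold higher in BMDMs and Pfkp 6.80-fold (90.7 to 94.1 against 12.8 to 14.3 CPM). Smaller differences in the same direction were found for Aldoa (log2 fold change 1.03), Hk2 (0.94) and Hk1 (0.45).

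Slc2a1 and Pfkl were the 2 genes with higher levels in fibroblasts. Slc2a1 was at 35.2 to 40.3 CPM in WT BMDMs and 104 to 127 CPM in fibroblasts in WT medium (2.94-fold, log2 fold change -1.55, adjusted p = 5.07e-10). Over the 4 groups, its order was WT BMDMs, PHD2cko BMDMs and then both fibroblast groups, which overlapped each other. Pfkl was 2.10-fold higher in fibroblasts than in WT BMDMs (log2 fold change -1.07, adjusted p = 2.92e-11). In the PHD2cko groups that difference was -0.05 (95% interval -0.14 to 0.03, adjusted p = 0.234), with 85.2 to 91.9 CPM in PHD2cko BMDMs and 92.3 to 92.8 CPM in fibroblasts in PHD2cko medium. Gpi1 was at 498 to 504 CPM in WT BMDMs and 525 to 544 CPM in fibroblasts in WT medium (-0.09, adjusted p = 0.0756), and was called in the opposite direction in the PHD2cko groups (0.38). Without WT medium replicate 1, Gpi1 was called lower in WT BMDMs (-0.12, adjusted p = 0.0129).

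**Figure D4:**
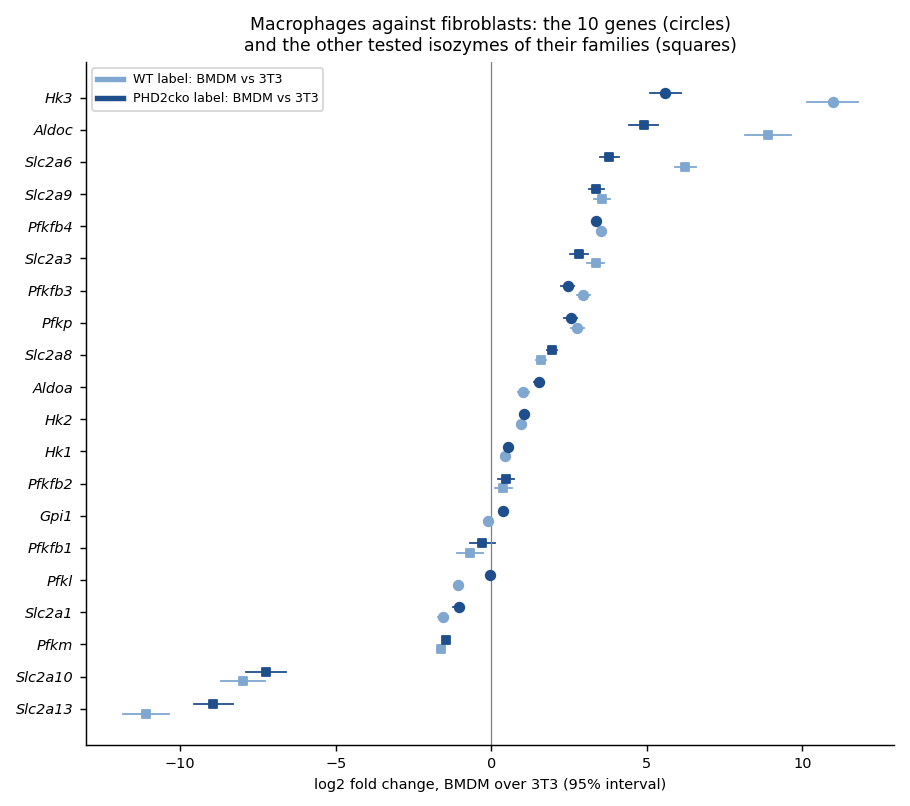
Log2 fold change of BMDMs over 3T3 fibroblasts with its 95% interval, in the groups labelled WT (light) and PHD2cko (dark), for the 10 genes (circles) and the other tested isozymes of their families (squares), in the order of the WT values. Pfkl lies at -1.07 with the WT label and at -0.05 with the PHD2cko label, and Hk3 at 10.97 and 5.60, while the values of Slc2a10 and Slc2a13, with 0 to 2 counts in BMDMs, depend on the prior count of the fit.

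Of the 10 other isozymes that were tested, 6 were higher and 4 lower in WT BMDMs, which is near the 85.3% of all genes tested that were called. Aldoc had 1202 to 1411 counts in WT BMDMs and 3 to 4 in fibroblasts in WT medium. Pfkm was at 31.0 to 31.9 CPM in WT BMDMs and 94.8 to 98.7 CPM in fibroblasts in WT medium (log2 fold change -1.62, adjusted p = 1.38e-12). Slc2a3 (log2 fold change 3.35), Slc2a6 (6.24), Slc2a9 (3.57), the gene of a urate transporter, and Slc2a8 (1.60) were higher in BMDMs. Slc2a10 and Slc2a13, the gene of a proton-coupled inositol transporter, had 243 to 298 and 284 to 419 counts in fibroblasts in WT medium, and at most 1 and 0 counts in WT BMDMs. Both passed the filter on low counts only through fibroblasts and so had to differ, as did Aldoc through the other groups.

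To compare isozymes with each other, CPM were divided by the length of the longest protein coding transcript in kilobases, which gives CPM per kilobase, and expressed as a share of the family. These shares are descriptions without a test. Among hexokinases, Hk3 held 68.6% ± 0.795 in WT BMDMs, Hk1 20.4% ± 0.516 and Hk2 11.0% ± 0.279 (SD, n = 3). In fibroblasts in WT medium Hk1 held 72.0% ± 0.602, Hk2 27.5% ± 0.739 and Hk3 0.160% ± 0.121. The family as a whole was at 130 ± 2.12 CPM per kilobase in WT BMDMs and 27.0 ± 0.925 in fibroblasts in WT medium. Hk3 held 8.02% ± 3.66 in fibroblasts in PHD2cko medium, with a range from 3.94% to 11.0% over the 3 libraries. The hexokinase-like Hkdc1 had 0 counts in all 6 BMDM libraries, which allows up to 3 counts in each.

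The phosphofructokinases differed in another way. In WT BMDMs Pfkp held 50.3% ± 0.749 of the family, Pfkl 25.2% ± 0.319 and Pfkm 24.6% ± 0.473. In PHD2cko BMDMs Pfkl reached 40.5% ± 0.826 and Pfkp held 40.2% ± 1.02, so that these shares could not be ordered beyond their spread. The total of the family was 44.3 ± 0.328 CPM per kilobase in WT and 59.1 ± 1.77 in PHD2cko BMDMs, and Pfkl accounted for most of that gain, from 11.1 ± 0.171 to 23.9 ± 0.940. In fibroblasts in WT medium Pfkm held 55.6% ± 0.290, Pfkl 38.9% ± 0.116 and Pfkp 5.45% ± 0.383, at a family total of 60.0 ± 1.08. With this length, Pfkl thus had a similar share in PHD2cko BMDMs and in fibroblasts, beside Pfkp in the former and Pfkm in the latter, which changed with other lengths given further on.

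Pfkfb4 held 58.4% ± 0.826 of the bifunctional enzymes in WT BMDMs and Pfkfb3 22.4% ± 0.590. In fibroblasts in WT medium Pfkfb2, the heart-type form, held 52.6% ± 7.09, Pfkfb4 21.0% ± 2.72 and Pfkfb3 between 9.92% and 13.2%. Of Slc2a1, Slc2a3 and the insulin-responsive Slc2a4, Slc2a1 held 71.4% ± 1.38 in WT and 81.3% ± 0.328 in PHD2cko BMDMs, and 98.6% ± 0.125 in fibroblasts in WT medium. Slc2a3 held 28.6% ± 1.38, 18.5% ± 0.250 and 1.29% ± 0.235 in the same groups. Aldoa held at least 95.7% of the aldolases in every library, with Aldoc at 4.11% ± 0.275 in WT BMDMs.

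The order of isozymes depended on the length used. With the median length of protein coding transcripts, many of which are annotated as fragments, Hk1 and not Hk3 was first in WT BMDMs (60.9% against 30.3%), and Pfkl and not Pfkm was first in fibroblasts in WT medium (48.7% against 41.4%). With the union of all exons, Pfkm came first in WT BMDMs (41.7%, Pfkp 30.6%). The shares of Pfkl in PHD2cko BMDMs and in fibroblasts in WT medium were 43.7% and 30.5% with the union of exons, where Pfkm (32.2%) was above Pfkp (24.0%) in PHD2cko BMDMs, and 36.7% and 48.7% with the median length. The fold changes of single genes in CPM, unlike the shares, do not use a length.

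**Figure D5:**
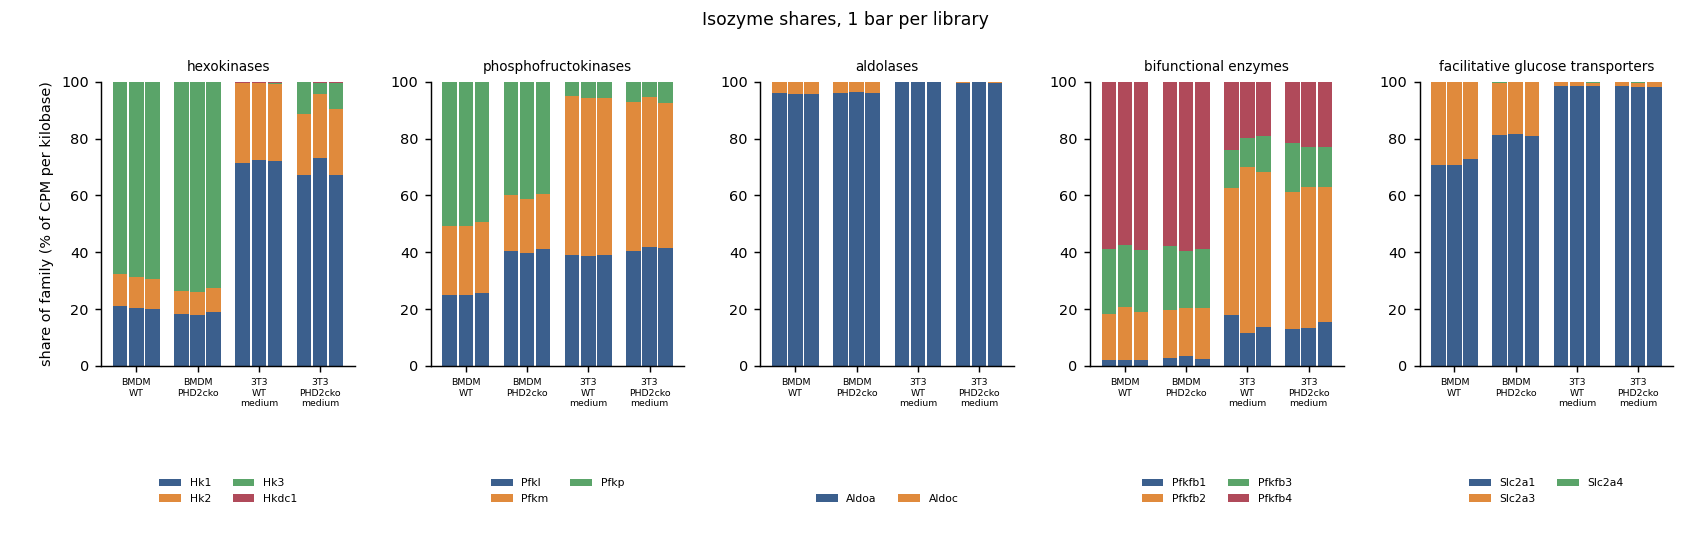
Share of each isozyme in its family, in percent of CPM per kilobase of the longest coding transcript, with 1 stacked bar for each of the 12 libraries, where parts too thin to be seen are not drawn. Hk3 fills most of the hexokinase bars in BMDMs (68.6% in WT) and Hk1 those in fibroblasts (72.0% in WT medium), and the Pfkl part grows from 25.2% to 40.5% between WT and PHD2cko BMDMs.

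Aldoa had the highest level of the 10 genes per kilobase in all 4 groups, from 339 ± 35.9 CPM per kilobase in fibroblasts in WT medium to 999 ± 40.2 in PHD2cko BMDMs, and Gpi1 was next in all groups (174 to 227). The order of these 2 genes depended on the length, since before division by it Gpi1 (536 CPM) was above Aldoa (525 CPM) in fibroblasts in WT medium. In WT BMDMs Hk3 followed at 89.3 ± 2.44, and the remaining 7 genes were between 8.79 and 26.6 CPM per kilobase. In fibroblasts in WT medium Slc2a1 followed at 34.3 ± 4.15.

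Genes with the most similar pattern over the 12 libraries were named by Pearson's r of log2 CPM, where most of the likeness comes from the 4 groups and libraries of a group are alike. For Slc2a1 they were Extl2 (r = 0.997), Il11ra1 (0.995) and Scoc (0.994). For Hk2 they were Rbck1 (0.998), Tmem43 (0.995) and Scpep1 (0.995). For Pfkl they were Gm8730 (0.988), Acacb (0.982), which encodes the mitochondrial acetyl-CoA carboxylase, and Mif (0.976), which encodes a cytokine. Mif was at 43.5 ± 1.60 CPM in WT BMDMs, 99.1 ± 3.84 in PHD2cko BMDMs, 113 ± 16.1 in fibroblasts in WT medium and 105 ± 8.78 in those in PHD2cko medium, so that WT BMDMs were the low group, as for Pfkl. Gm8730 is a processed copy of a ribosomal protein gene, and its value is uncertain because reads can be split between such copies.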

How the data were processed

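RNA of 12 mouse libraries had been sequenced as polyadenylated RNA with single reads. The authors deposited estimated counts per gene, without normalization or a filter, which they made with kallisto on GRCm38 (both named in the submitters' processing notes). The values are whole numbers, and how the estimates were rounded is not given in the sources used here. The table held 0 columns that could not be mapped to a sample. Estimating counts from transcripts can split reads between near-identical copies, as for aldolase A and ribosomal protein genes.

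From these counts, genes were kept by edgeR's filterByExpr over the 4 groups, and TMM and the quasi-likelihood test of edgeR 4.0.16 (R 4.3.3) were applied to all 12 libraries, two-sided, with Benjamini-Hochberg adjustment over 14285 genes and a threshold of 0.05. Standard errors were derived from the p-values and intervals are 95%. The study's own method, limma-voom, was an alternative (limma 3.58.1), as were DESeq2 1.42.0 and others given at the end. CPM are per 1e+06 counts of the effective library size, with 0.5 added before log2 for correlations. Total counts of 15516465 to 25199770 put 3 counts, the floor, at 0.119 to 0.193 per 1e+06 counts of the library total, before TMM, and floors and counting intervals say nothing of other errors. Marker sums and percentages of BMDM levels used counts per 1e+06 counts of the library total instead, without TMM. On that scale, the macrophage share of a fibroblast library was the sum of 22 markers over its mean in BMDMs of the same label. This share was subtracted with the BMDM profile in 1 alternative.

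Gene positions and lengths came from GENCODE M21, in which all 10 genes matched, and promoters from RefSeq on GRCm38.p6. Isozyme shares were first planned on the median coding transcript length. This was replaced by the longest after it was seen that fragments made the median too short (581 against 4278 bases for Hk1). The genes, lists and tests were chosen with earlier results of these data known. All 10 genes are described. Of the other lists, which are the other isozymes, neighbouring and opposing steps, regulators and markers, tested genes were counted. Outside the markers, those past the threshold at 2-fold or more were named in BMDMs, in fibroblasts and between the WT groups. Some with smaller changes were named beside them. For 3 of the 10 genes the 3 most correlated genes were named. The scripts were tested on simulated data. Some items of the study are not reported here.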

Additional observations from a re-analysis of the deposited data

Results flagged for a closer look

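The effect of the PHD2cko label differed between fibroblasts and BMDMs for 6 of the 10 genes, by the interaction test of edgeR, against 12.3% of all genes tested. The difference of log2 fold changes, fibroblasts minus BMDMs, was -0.51 for Slc2a1, -0.47 for Gpi1, -1.01 for Pfkl and -0.51 for Aldoa, where BMDMs showed the larger rise. It was 5.37 for Hk3, which had 1 to 5 counts in fibroblasts in WT medium, and whose rise in PHD2cko medium ran beside that of 21 of 22 macrophage markers. It was 0.51 for Pfkfb3, with an adjusted p of 0.0288, or 0.0704 with the macrophage share subtracted. The label stands for the genotype of the cells in BMDMs and for the source of the medium in fibroblasts, so the compared effects differ in kind. No test for an outlying library within a group was run, since every group holds 3 libraries.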

How the results depend on the processing

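Of the 10 genes, 4 were called in BMDMs, 3 in fibroblasts, 9 between cell types and 6 in the interaction. With DESeq2's size factors, limma-voom, DESeq2's own test or another filter on low counts, these numbers were 4 in BMDMs, 2 to 4 in fibroblasts, 9 to 10 between cell types and 5 to 6 in the interaction. In fibroblasts 1 gene was called when the 6 fibroblast libraries were fitted alone, and in BMDMs 6 when the 6 BMDM libraries were. With the macrophage share subtracted, 2 genes were called in fibroblasts and 5 in the interaction. With each library left out in turn, 4 genes were called in BMDMs each time, 2 to 4 in fibroblasts, 9 to 10 between cell types and 5 to 7 in the interaction. With the replicate number as a block, 4, 3, 9 and 6 genes were called, as without it. Same-numbered libraries correlated by -0.118 to 0.0579 in their deviations from the group means, so the numbers were not read as pairs. Fitting the 6 BMDM libraries alone called 1202 genes higher and 1332 lower over all genes, against 483 and 478, and the 6 fibroblast libraries alone 566 and 346, against 1276 and 964. The cause was not tested.

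With the macrophage share subtracted, small changes turned sign in fibroblasts for Aldoa (log2 fold change -0.0041) and Pfkfb4 (-0.0214), and in the interaction for Pfkfb4 (-0.0281). With the PHD2cko groups in place of the WT groups, Gpi1 was higher in BMDMs (0.38). Leaving out 1 library turned the sign of log2 fold changes near 0, which ranged from -0.0182 to 0.0598 for Pfkfb4 in BMDMs and in fibroblasts from -0.1013 to 0.0738 for Slc2a1, -0.0335 to 0.1304 for Aldoa and -0.0357 to 0.0148 for Hk1. Gpi1 between cell types was also called by limma-voom (-0.09), DESeq2 (-0.10) and with at least 10 counts in every library (-0.15), a filter that Hk3 did not pass. Of 216 isozyme shares recomputed with another length or none, 155 moved by more than 1 SD.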

Other observations

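Enzymes that branch off from upper glycolysis were compared between WT BMDMs and fibroblasts in WT medium, where medium and time differed too. Pygl, liver-type glycogen phosphorylase, had 1973 to 2209 counts in BMDMs and 0 to 3 in fibroblasts, a difference that its passing the filter through other groups had fixed. G6pdx, the entry enzyme of the pentose phosphate pathway, was 4.24-fold higher in BMDMs (log2 fold change 2.08, adjusted p = 9.83e-13), and Tigar, which dampens the activator of phosphofructokinase, was 2.55-fold higher. Gfpt1, the first enzyme of the hexosamine pathway, was 3.12-fold higher in fibroblasts (log2 fold change -1.64, adjusted p = 1.48e-10), and Gys1, glycogen synthase, and Pgm2, a phosphoglucomutase, were 2.09-fold and 2.07-fold higher there. Of the 13 tested genes of this list, 5 were higher and 7 lower in BMDMs, which is near the 85.3% of all genes tested that were called in either direction.

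Among the 9 tested regulators, 4 were higher and 4 lower in BMDMs, again near the 85.3% of all genes tested. Myc was at 1.10 to 1.94 CPM in WT BMDMs and 56.4 to 66.5 CPM in fibroblasts in WT medium (log2 fold change -5.42), and Hif1a at 111 to 115 and 243 to 258 CPM (-1.15). Epas1, which encodes the other main HIF alpha subunit, went the opposite way, at 5.78 to 7.87 and 0.580 to 1.02 CPM (3.09). Mlxip, which encodes the glucose-sensing factor MondoA, was at 147 to 149 and 46.4 to 62.1 CPM (1.39), and Txnip, a target of that factor, at 465 to 474 and 50.5 to 59.2 CPM (3.11).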
